A study of Mus musculus with 4 samples.

Results

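The noncoding RNAs described here are Rn45s, Rmrp, Rpph1, Terc and Rn7sk, which serve ribosome synthesis, cleavage of precursor rRNA and tRNA, telomere synthesis and the control of transcription elongation, and they were looked up by gene symbol in 4 RNA-seq libraries of C2C12 cells. 4 of the 5 symbols matched an entry, in each of the 4 libraries, out of 24850 entries with a gene symbol in the total RNA tables and 24992 in the polyA tables. No entry matched Rn7sk by symbol, so it was not analysed here. The set was chosen by the FPKM values of its members in these 4 libraries and by their changes in the 3 contrasts below, so both are given as a description.

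C2C12 is a mouse myoblast cell line whose cells leave the cell cycle and fuse into myotubes once serum is withdrawn. Total RNA, depleted of rRNA and made into strand-specific libraries, was sequenced from proliferating myoblasts (MB) at DM -24 h, counted from the switch to differentiation medium (DM), and from myotubes (MT), which the labels place at DM 72 h. The study's text also names another hour of differentiation for MT RNA-seq, so the exact time of this library is uncertain. Poly(A)-selected RNA, with NEBNext libraries, was sequenced from cells at DM 48 h that had been transfected with siRNA against hnRNPL (si-hnRNPL) or with a control siRNA (si-NC). Each condition was 1 library of 1 cell line, with no further genotype or treatment in the labels, so no test between conditions was possible. Levels are given as FPKM, a fragment count scaled to the length of the transcript and to the mapped fragments of the library, with the deposited 95% interval in parentheses, which reflects counting and read assignment inside 1 library and no variation between cultures.

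Rn45s is the entry for the rRNA precursor that RNA polymerase I transcribes from tandem repeats in the nucleolus and that is cut into the mature rRNAs. Rmrp is the RNA of RNase MRP, which takes part in cutting that precursor, and Rpph1 is the RNA of RNase P, which removes the leader of precursor tRNAs; both enzymes carry a catalytic RNA within a largely shared set of protein subunits. Both RNAs are made by RNA polymerase III and end without a poly(A) tail. Terc is the RNA of telomerase, made by RNA polymerase II, and holds the template that the enzyme copies into telomere repeats. Poly(A) selection is designed to leave such RNAs behind, whereas rRNA depletion keeps all of them except those its probes or enzymes remove.

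The sequences of the 4 loci were read from the mouse genome build of the deposited loci (mm9), since they show what each entry holds and how its RNA ends. Rmrp lay at chr4:43505657-43505931 on the minus strand (275 bases), Rpph1 at chr14:51427122-51427446 on the minus strand (325 bases), Terc at chr3:96218360-96218756 on the minus strand (397 bases) and Rn45s at chr17:39979942-39985774 (5833 bases). The first of the runs below is the whole Rmrp RNA with 25 bases of genome after its end (chr4:43505632-43505931), and the next is the last 275 bases of Rpph1 with 25 bases after its end (chr14:51427097-51427396). Capitals in both mark the first run of 4 or more T after the end, the signal at which RNA polymerase III is known to stop. The third is the first 300 bases of Terc (chr3:96218457-96218756), with the longest stretch complementary to the telomere repeat in capitals. The fourth is the product of the 18S rRNA qRT-PCR primers of the study, found inside the Rn45s locus on the plus strand (chr17:39984881-39985031), with the primer sites in capitals.
Rmrp: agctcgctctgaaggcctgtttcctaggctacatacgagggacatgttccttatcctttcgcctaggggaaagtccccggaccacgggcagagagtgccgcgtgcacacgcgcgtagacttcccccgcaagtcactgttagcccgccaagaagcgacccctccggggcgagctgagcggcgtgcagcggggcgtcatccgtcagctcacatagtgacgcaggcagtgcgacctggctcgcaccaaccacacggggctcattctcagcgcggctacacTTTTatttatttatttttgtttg
Rpph1: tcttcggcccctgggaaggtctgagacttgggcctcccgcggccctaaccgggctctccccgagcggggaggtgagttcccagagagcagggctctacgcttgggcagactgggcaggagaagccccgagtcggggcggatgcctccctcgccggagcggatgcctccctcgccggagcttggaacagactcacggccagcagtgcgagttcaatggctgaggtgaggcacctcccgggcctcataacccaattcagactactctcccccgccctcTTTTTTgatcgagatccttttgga
Terc: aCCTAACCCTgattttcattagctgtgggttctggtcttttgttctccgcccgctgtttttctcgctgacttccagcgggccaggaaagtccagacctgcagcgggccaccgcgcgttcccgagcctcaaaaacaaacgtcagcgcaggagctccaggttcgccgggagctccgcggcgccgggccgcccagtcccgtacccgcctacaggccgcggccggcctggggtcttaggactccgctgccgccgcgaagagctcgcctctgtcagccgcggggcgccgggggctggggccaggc
Rn45s: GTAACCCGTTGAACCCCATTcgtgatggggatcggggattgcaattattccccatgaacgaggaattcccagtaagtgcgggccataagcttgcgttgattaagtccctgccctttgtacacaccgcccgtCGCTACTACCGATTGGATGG

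The T run began 3 bases after the end of Rmrp and 2 bases after the end of Rpph1, and no run of TTTT fell within 25 bases after the end of Terc. Among 37310 annotated genes, 22.8% had TTTT in that window. TATA stood 28 bases before the start of Rpph1 and was not found in the 40 bases before Rmrp or Terc, against 8.91% of annotated genes. The octamer core ATGCAAA, on either strand, was found 96 bases upstream of Rpph1 and 221 bases upstream of Rmrp, and not within 250 bases upstream of Terc, against 5.02% of annotated genes. The template stretch of Terc covered 9 bases, positions 2 to 10 of the RNA. The 18S product took bases 4940 to 5090 of the 5833 in the Rn45s locus. The entry therefore holds mature 18S rRNA sequence, and precursor and mature rRNA cannot be told apart in its value. CAAA, the motif the series title names for hnRNPL, was absent from Rmrp and Rpph1. It occurred 2 times in Terc and 7 times on the plus strand of the Rn45s locus. It was present in 54.7% to 65.8% of the first bases of annotated genes over the lengths of the 3 short RNAs, and no such share was taken for the Rn45s locus. The study describes a tract of tandem CAAA repeats, whereas single copies were counted here, and binding of hnRNPL was not tested. GC content was 63.6% in Rmrp, 66.8% in Rpph1, 66.8% in Terc and 64.9% in the Rn45s locus, where the median of annotated genes over the 3 short lengths lay between 54.9% and 55.3%.

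The GENCODE annotation of this build placed the protein-coding gene Ccdc107 on the opposite strand across 160 bases of Rmrp, so reads there could be shared wherever strand was not used in counting, although the deposited Ccdc107 entry began at position 43506237, outside Rmrp. Parp2, on the strand opposite to Rpph1, started 174 bases away. A pseudogene, AY036118, covered 725 bases of the Rn45s locus on the minus strand. The closest protein-coding gene to Terc lay 18954 bases away.

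The deposited intervals correspond, over all entries of a library, to 59960176 fragments for MB, 54442423 for MT, 14592480 for si-hnRNPL and 21341051 for si-NC. Hnrnpl, the siRNA target, had an FPKM of 111 in MB, 63.0 in MT, 85.9 (83.1 to 88.7) in si-hnRNPL and 95.1 (92.7 to 97.5) in si-NC. From si-NC to si-hnRNPL its log2 change of FPKM + 1 was -0.14, so its mRNA was only slightly lower in the library labelled si-hnRNPL. The study examined its knockdown from the protein, by Western blot, which these libraries do not measure. All 8 myotube markers were higher in MT than in MB (summed FPKM 2013 against 17.0), and 6 of 7 markers of proliferating myoblasts were lower. Markers of adipocytes and leukocytes summed to at most 0.282 and 1.13 FPKM in every library, and osteoblast markers to at most 5.98.

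Rmrp was the most abundant of the 4 RNAs per length in total RNA. Its FPKM was 2236 (2206 to 2267) in MB and 1951 (1924 to 1979) in MT, ranks 3 and 1 among the named entries above 0. In polyA RNA si-hnRNPL had 37.2 (24.3 to 50.1) and si-NC 6.05 (1.77 to 10.3), ranks 2320 and 8253. All 4 intervals were apart, with the total RNA values far above the polyA values.

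Rpph1 showed the same split between total and polyA RNA, at lower values than Rmrp. Its FPKM was 1441 (1420 to 1461) in MB, 1444 (1424 to 1464) in MT, 19.3 (12.5 to 26.1) in si-hnRNPL and 2.02 (0.213 to 3.83) in si-NC. Its rank was 5 in MB, 3 in MT, 10418 in si-NC and 4201 in si-hnRNPL. Its intervals lay below those of Rmrp in MB and MT and overlapped them in both transfected libraries, so the 2 RNAs could not be ordered in polyA RNA.

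Rn45s kept a high level in both kinds of library. The rRNA repeats have many copies, and how reads matching several copies were assigned to this 1 locus is not given in the sources used here, so its FPKM, rank and fragments depend on that assignment. Its FPKM was 1047 (1044 to 1050) in MB, 646 (643 to 648) in MT, 954 (948 to 959) in si-hnRNPL and 383 (380 to 386) in si-NC, ranks 9, 8, 45 and 136 in that order. si-hnRNPL was thus close to MB and above MT, and the 4 intervals did not overlap. Its share of the fragments implied by the intervals was 0.817% in MB, 0.584% in MT, 0.355% in si-NC and 0.834% in si-hnRNPL. What rRNA depletion left in MB and MT and what poly(A) selection left in the transfected libraries cannot be told apart from the amount of precursor in the cells.

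Terc was the least abundant. Its FPKM was 26.8 (24.5 to 29.1) in MB and 13.2 (11.6 to 14.8) in MT, ranks 3270 of 17246 and 5084 of 17932 named entries above 0, and it was listed at 0 in si-NC and si-hnRNPL. For Rpph1, the nearest of the other RNAs in length, 3 fragments were worth an FPKM of 1.82 in si-hnRNPL and 1.21 in si-NC, so a Terc level below about this size would not have been detectable at this depth.

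**Figure D1:**
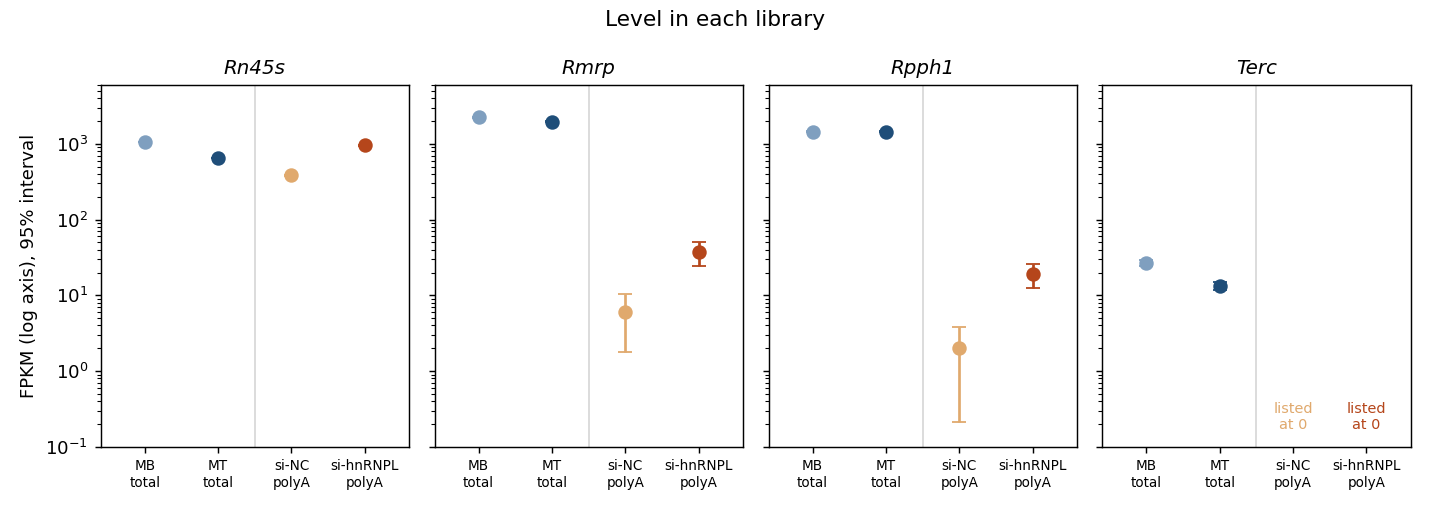
FPKM on a log axis of Rn45s, Rmrp, Rpph1 and Terc in the 4 libraries, 1 point per library, with the deposited 95% interval as the bar (where no bar shows, it is smaller than the point). Rmrp and Rpph1 sit at 1441 or more in MB and MT and between 2.02 and 37.2 in the polyA libraries, Rn45s stayed between 383 and 1047, and Terc was listed at 0 in both polyA libraries.

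The order of the levels differed between the 2 kinds of library. In total RNA it ran Rmrp, Rpph1, Rn45s, Terc, with Rmrp 1.55 times Rpph1 in MB and 1.35 times in MT, and Rpph1 1.38 times Rn45s in MB and 2.24 times in MT. Rpph1 was 53.8 times Terc in MB and 109 times in MT. In polyA RNA Rn45s came first, where it stood at 63.3 times Rmrp and 189 times Rpph1 for si-NC, and at 25.6 and 49.4 times for si-hnRNPL. Such ratios within a library are free of its scaling, but they depend on how FPKM corrects for length. A single fragment was worth 34.2 times more FPKM on Rpph1 than on Rn45s in MB and 79.9 times more in si-NC, so part of a level of a short RNA comes from this correction, and the levels of short RNAs in the 2 kinds of library were not set on the same scale.

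The comparison of MT with MB addresses how the RNAs changed as myoblasts differentiated. Terc and Rn45s were lower in MT, Rmrp was slightly lower and Rpph1 was level. Terc was 2.03-fold lower in MT (log2 change of FPKM + 1 of -0.97, -1.17 to -0.77), and Rn45s was 1.62-fold lower (-0.70, -0.70 to -0.69). Rmrp was 1.15-fold lower (-0.20, -0.23 to -0.17), and Rpph1 differed by 0.00 (-0.03 to 0.03), the only one of the 4 whose MB and MT intervals overlapped. The bounds join the intervals of the 2 libraries and hold no variation between cultures. In bulk RNA, fewer cells holding an RNA and less of it per cell cannot be told apart.

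2 of the 4 RNAs thus passed a log2 change of 0.58, a 1.5-fold change, both lower in MT. Over all 18624 named entries above 0 in at least 1 of the 2 libraries, 18.3% were lower and 10.4% higher by this rule. Of the entries called, 36.3% were higher as deposited, 58.1% after centring on the median of entries at or above an FPKM of 1 in each library, which was -0.23, and 74.7% after rescaling long genes to equal sums. Relative to that median the log2 change was -0.74 for Terc, -0.47 for Rn45s, 0.03 for Rmrp and 0.23 for Rpph1, so that 1 RNA was past the threshold and Rmrp turned direction. After the rescaling it was -0.46, -0.15, 0.35 and 0.55 in the same order, and none was. Both steps move all 4 RNAs by nearly the same amount, so their order from Terc to Rpph1 was kept by construction and is no check.

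**Figure D2:**
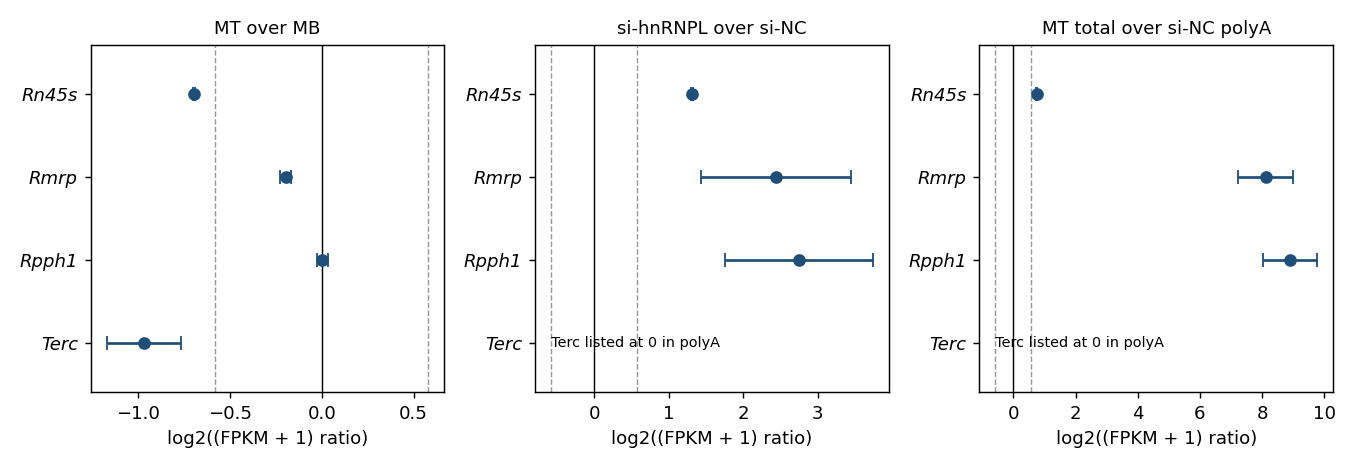
Log2 change of FPKM + 1 of each RNA in the 3 comparisons, 1 library against 1, with bars that join the deposited 95% intervals of both libraries, dashed lines at 0.58 in either direction, and a separate horizontal scale in each panel. Terc and Rn45s lie below the lower line in MT over MB, and Rn45s, Rmrp and Rpph1 lie above the upper line in the other panels, where Terc has no change because it was listed at 0 in polyA RNA.

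Genes for the proteins that make, bind or process these RNAs were more often lower than higher in MT. Of 39 measured pre-rRNA processing factors, 31 were lower by 0.58 or more and 0 higher, with a median log2 change of -1.12. The median over all 18624 entries was -0.00. Among the 10791 entries at or above an FPKM of 1 in each library it was -0.23, with 28.9% lower and 12% higher. That is the closer background for these lists, since nearly all their genes reached this level. Nop56, a core protein of the snoRNPs that methylate rRNA, measured 151 FPKM in MB and 42.4 in MT. Tcof1, a nucleolar factor of rDNA transcription, had 23.3 and 6.28, Dis3, an exosome nuclease, 33.8 and 9.06, and Rrp9, a protein of the U3 snoRNP, 42.5 and 12.4. Of 14 measured genes of RNA polymerase I and its factors, 9 were lower and 0 higher (median -0.84), among them the subunit genes Polr1b (5.83 in MT against 17.4 in MB), Polr1e (3.39 against 9.78) and Polr1c (23.2 against 53.3). Rn45s itself, at -0.70, lay above both medians.

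RNase P and RNase MRP share most of their proteins, and 7 of the 11 measured subunit genes were lower in MT and 0 higher (median -0.63). Pop1, the largest subunit, had an FPKM of 3.95 in MT against 21.3 in MB (log2 change -2.17), Pop5 12.1 against 34.7, Pop4 8.34 against 19.2 and Pop7 15.9 against 35.1. The RNAs of the same complexes, Rmrp at -0.20 and Rpph1 at 0.00, lay above that median. RNA polymerase III, which makes both RNAs, had 10 of 28 measured genes lower and 2 higher (median -0.44). Its 35.7% lower was near the 28.9% among entries at or above an FPKM of 1 in each library. Polr3g and Polr3gl, which encode alternative forms of 1 subunit, went opposite ways. Polr3g had 2.52 in MT against 10.1 in MB, and Polr3gl 10.2 against 2.85. Gtf3a, the TFIIIA factor of 5S rRNA genes, had 8.35 against 25.1.

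For telomerase, 6 of 9 measured genes of the RNP were lower and 0 higher (median -1.08, range -1.85 to -0.13), and Terc at -0.97 lay within their range. With a pseudocount of 0.1 the median was -1.32 and Terc was at -1.02. Nhp2, Dkc1 and Gar1, proteins of the H/ACA core that binds the 3′ domain of Terc, had 27.9, 12.8 and 2.70 in MT against 104, 47.4 and 10.6 in MB, and Wrap53, which directs the RNP to Cajal bodies, 5.23 against 14.2. For the 7SK RNP, whose RNA was not analysed here, 2 of 7 measured genes were lower and 2 higher (median 0.07). Larp7, which binds 7SK RNA, had 14.3 in MT against 30.2 in MB, whereas Hexim1, the inhibitor that 7SK presents to P-TEFb, had 20.8 against 11.1. After rescaling long genes to equal sums, 22 of the 39 processing factors, 5 of the 14 RNA polymerase I genes, 4 of the 11 subunit genes and 5 of the 9 telomerase genes were lower and 0, 1, 1 and 0 were higher. The RNA polymerase III list then turned to 5 higher and 2 lower, and the 7SK list to 4 higher and 0 lower. Under the same rescaling 23.2% of all 18624 entries were higher and 7.84% lower. The RNA polymerase III list, at 17.9% and 7.14%, was near or below these shares, so its turn is not read as a trait of the list.

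**Figure D3:**
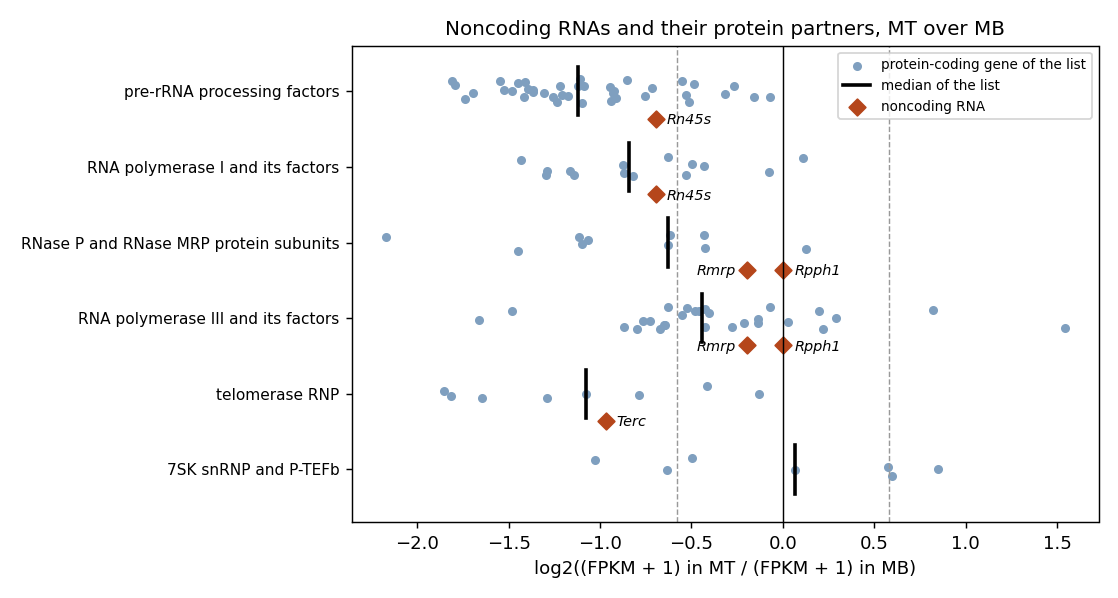
Log2 change of FPKM + 1, MT over MB, of each protein-coding gene of 6 lists (circles, with the list median as a black bar), and of the noncoding RNA the list serves (diamonds), with dashed lines at 0.58 in either direction. Terc lies within the range of the telomerase genes, whose median is -1.08. Rn45s lies above the medians of -1.12 and -0.84, and Rmrp and Rpph1 above the medians of -0.63 and -0.44.

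Other noncoding RNAs of total RNA were counted beside these. Of 45 snoRNA genes above 0, 15 were lower in MT and 3 higher (median -0.36), but after rescaling 7 were lower and 9 higher (median 0.18). Those are 15.6% and 20.0%, where 7.84% of all 18624 entries were lower and 23.2% higher after the rescaling. Of the 45, 18 rested on 10 fragments or fewer in at least 1 of the 2 libraries. The 13 other noncoding entries without a poly(A) tail came from 4 genes, 10 of them being Rn4.5s loci with nearly 1 shared value. As deposited 0 passed the threshold (median -0.52), with Vaultrc5, the vault RNA, at 0.51, Rnu12, the U12 snRNA, at 0.44 and Rnu11 at 0.27, and after rescaling 3 were higher (median 0.01). Replication-dependent histone mRNAs end in a stem-loop and not in a poly(A) tail. Of their 75 entries, from 68 genes, 65 were lower as deposited and after rescaling (median -2.09 as deposited). Malat1 and Neat1, nuclear lncRNAs, were higher, with FPKM of 628 and 48.8 in MT against 161 and 14.3 in MB.

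The comparison of si-hnRNPL with si-NC sets 1 library of cells given the siRNA against hnRNPL beside 1 control library at DM 48 h. The 3 RNAs measured in polyA RNA were all higher in si-hnRNPL. Rpph1 was 9.54-fold higher (log2 change of FPKM + 1 of 2.75, 1.76 to 3.74), Rmrp 6.16-fold (2.44, 1.44 to 3.44) and Rn45s 2.49-fold (1.31, 1.30 to 1.33). The intervals of the 2 libraries did not overlap for any of the 3, which together with the threshold held for 1.18% of named entries. Taking the extreme ends of both intervals, the fold lay between 3.25 and 122 for Rpph1, between 2.36 and 28.3 for Rmrp and between 2.46 and 2.52 for Rn45s. Rpph1 and Rmrp differed from each other by less than these bounds.

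The depth behind these folds was very uneven. The intervals correspond to 5.00 fragments of Rpph1 in si-NC and 31.9 in si-hnRNPL, and to 8.00 and 33.4 of Rmrp, against 75679 and 121766 of Rn45s. For all 3, the number was thus larger in the library with fewer fragments. In MB and MT, the same measure gave 19753 and 21076 for Rpph1 and 21522 and 20121 for Rmrp. The polyA values of these 2 RNAs therefore rest on few fragments, and their folds are known only within the wide bounds above.

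All 3 measured RNAs passed the threshold, where 1.03% of 16767 named entries were higher and 0.62% lower. Since the RNAs were chosen with this contrast known, nothing is read from that share. Of the entries called, 62.3% were higher as deposited and 38.0% after rescaling long genes to equal sums, and the log2 changes of the RNAs were then 2.65, 2.34 and 1.21. Entries with a larger log2 change than Rpph1 numbered 10, none a member of the set, and each spanned at most 129 bases and implied at most 5.02 fragments in si-hnRNPL and 0.704 in si-NC. Above Rn45s stood 23 entries other than Rmrp and Rpph1, 8 of them listed at 0 in si-NC and none with 5 or more implied fragments in both libraries. In all, 12992 entries had at least 5 in both. That limit equals the 5.00 of Rpph1 in si-NC, and the RNAs were chosen with this contrast known. No rank of the RNAs is therefore read from it.

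**Figure D4:**
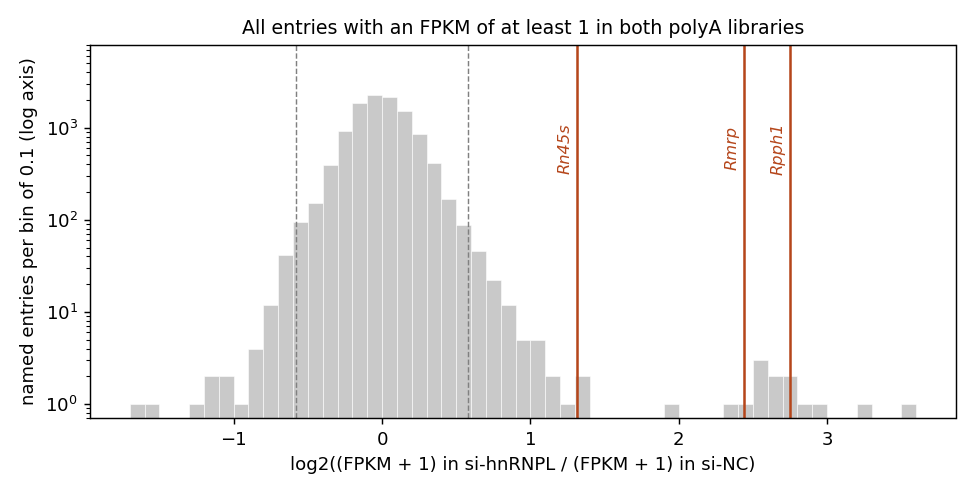
Number of named entries (log axis) per bin of 0.1 in the log2 change of FPKM + 1, si-hnRNPL over si-NC, for entries at or above an FPKM of 1 in each polyA library, with dashed lines at 0.58 in either direction. Red lines mark Rn45s at 1.31, Rmrp at 2.44 and Rpph1 at 2.75, and the bars around and beyond Rmrp and Rpph1 hold 3 entries or fewer each.

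The genes that make, bind or process these RNAs moved little in the same comparison. Of 38 pre-rRNA processing factors, 14 RNA polymerase I genes, 28 RNA polymerase III genes, 9 telomerase RNP genes and 7 genes of the 7SK RNP, 0 passed the threshold in either direction, with list medians between -0.15 and 0.06. The largest differences among them, at an FPKM of 1 or more, were Wdr36, a processome protein, at 38.3 in si-hnRNPL against 51.0 in si-NC, and Utp20, another, at 6.39 against 8.42. Of 11 RNase P and RNase MRP subunit genes, 1 passed the threshold, Rpp21 with an FPKM of 30.2 (log2 change 0.70) against 18.2, and the median was 0.10.

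Other RNAs that lack a poly(A) tail were counted beside the 3 RNAs. Of 74 histone entries above 0, from 65 genes, 13 were higher in si-hnRNPL and 2 lower (median 0.29). With long genes rescaled to equal sums, 10 were higher and 4 lower (median 0.24), where 0.66% of all entries were higher and 1.08% lower. The summed FPKM of the histone entries as deposited was 230 against 162, a ratio of 1.42. Of 17 snoRNA genes above 0, 7 were higher and 6 lower (median 0.37), none on more than 3 fragments in a library. Of 12 other such entries 11 were higher and 1 lower (median 0.66), but 10 of them were Rn4.5s loci with 1 shared value, 7.24 against 4.22, and 0 were higher after the rescaling. Of 5 nuclear lncRNAs, none passed (median -0.06), with Malat1 at 131 against 146 and Neat1 at 146 against 152. 3 of 8 myotube markers were higher in si-hnRNPL (summed FPKM 4657 against 3119) and 2 of 7 proliferation markers lower (213 against 278). The part of these differences, and of how far poly(A) selection left other RNA behind in each library, in the higher Rpph1, Rmrp and Rn45s was not tested.

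A related gene was set beside Rpph1. Rprl3, an RNase P RNA-like gene looked at after its values were seen (chr8:3803125-3803361, 237 bases), had an FPKM of 276 (263 to 289) in MB, 265 (253 to 277) in MT, 13.8 (3.37 to 24.3) in si-hnRNPL and 1.41 (0 to 4.22) in si-NC. It rested on 1 fragment in si-NC and 7 in si-hnRNPL. Its profile had the shape of Rpph1, level between MB and MT and higher in si-hnRNPL than in si-NC, and whether reads of one were assigned to the other was not tested. Rprl2 stayed at or below 0.748 FPKM and Rprl1 was listed at 0 in all 4 libraries.

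The comparison of MT total RNA with si-NC polyA RNA sets the 2 preparations beside each other, although they also differ in time (DM 72 h and 48 h by the labels), transfection and kit, which cannot be told apart here. Rpph1 and Rmrp were far higher in total RNA. Rpph1 was 714-fold higher (372 to 6858 from the extreme ends of the intervals, log2 change 8.90) and Rmrp 323-fold (186 to 1117, log2 change 8.11), whereas Rn45s was 1.69-fold higher (1.67 to 1.70, log2 change 0.75). Terc had 13.2 in MT and was listed at 0 in si-NC, and no fold is given. All 3 RNAs with a fold passed the threshold, where 7.31% of 17711 named entries were higher and 17.2% lower. 1 entry had a larger change than Rpph1 and 10 a larger change than Rmrp.

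These changes can be read beside those of other RNAs without a tail. 65 of 74 histone entries, from 67 genes, were higher in MT total RNA and 1 was lower (median 4.24). Of 43 snoRNA genes 40 were higher (median 5.76), and all 13 other noncoding entries, from 4 genes, were higher (median 2.75). Most of the 13 were Rn4.5s loci with nearly 1 shared value, so that median is in effect the value of 1 gene. Rmrp at 8.11 and Rpph1 at 8.90 were above the histone and other noncoding medians and Rn45s at 0.75 was below them. The snoRNA median could not be ordered against Rmrp and Rpph1, since it was 9.06 at a pseudocount of 0.1, where Rmrp had 8.31 and Rpph1 9.41, and 1.14 over snoRNA genes that reached an FPKM of 1 in each library. The lists of polyadenylated transcripts that encode the partner proteins had medians between -0.56 and 0.06, with at most 1 gene higher in each and as many as 8 lower, the count among 38 pre-rRNA processing factors. After rescaling these lists had medians between -0.04 and 0.55, so their direction rests on the scaling. Then 5 of 11 RNase P and RNase MRP subunit genes and 10 of 28 RNA polymerase III genes were higher. So were 7 of 38 processing factors and 3 of 14 RNA polymerase I genes. Of all 17711 entries 21.4% were higher and 6.30% lower after the rescaling. The processing factors, at 18.4%, and the RNA polymerase I genes, at 21.4%, were near that share. Among 5 nuclear lncRNAs, 2 were higher in MT total RNA and Neat1 was lower (-1.62). Of the entries called, 29.8% were higher as deposited, 53.8% after centring on the median of -0.22 and 77.3% after the rescaling, under which Rn45s changed to 0.98 and 1.32.

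Over the 4 libraries, the profile closest to that of each RNA was sought among 11619 entries that reached an FPKM of 1 somewhere, as the distance between log2(FPKM + 1) values centred on their own mean. For Rn45s it was Snora64, an H/ACA snoRNA that guides rRNA modification, at a distance of 0.14, with an FPKM of 378 in MB, 205 in MT, 132 in si-NC and 338 in si-hnRNPL, the polyA values on 3 or fewer fragments. The next were Malsu1, a mitochondrial ribosome assembly factor, at 0.52, and Coprs at 0.56. For Rpph1 it was Snora74a, another H/ACA snoRNA, at 0.25, with 450, 422, 0 and 4.31, followed by Rmrp at 0.59. For Rmrp it was Snora74a at 0.58, then Rpph1, and for both the third was Scarna6, a guide RNA of Cajal bodies, with 149, 144, 0 and 3.28. For Terc it was Snora47, at 0.52, with 17.3, 9.71, 0 and 0, then Mir6244 and Snora30 at 0.62 each. None of these 3 rested on more than 6 fragments in a library, so they are not well measured profiles. The polyA values of Snora74a and Scarna6 rested on 2 fragments or fewer. The profiles of Rn45s and Rpph1 were 7.17 apart, and those of Rn45s and Terc 3.98. The points of each profile share preparation and depth within a pair of libraries, and 4 points are too few to tell a shared profile from a shared preparation.

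The protein-coding neighbours did not show the profile of the RNAs. Ccdc107, beside Rmrp, had an FPKM of 25.7 in MB, 24.9 in MT, 27.5 in si-NC and 28.2 in si-hnRNPL. Parp2, next to Rpph1, had 23.3, 14.2, 16.5 and 14.8. It was lower in MT than in MB by 0.67 on the log2 scale, where Rpph1 was level, and lower in si-hnRNPL than in si-NC by 0.15, where Rpph1 was higher.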

How the data were processed

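Total RNA-seq (MB, MT) and polyA RNA-seq (si-hnRNPL, si-NC) of C2C12 cells were used, with 1 library per condition. The authors aligned reads to mm9 using TopHat 2.0.13 and ran Cufflinks 2.1.1, and the tables they deposited give an FPKM, its 95% interval and a locus per entry. Whether counting used the strand is not given in the sources used here. Values were compared on the log2(FPKM + 1) scale, a change of 0.58 or more was counted, and intervals of 2 libraries were added in quadrature on that scale. Fragments were implied from each interval as (2 x FPKM / (upper bound - FPKM)) squared. This treats the interval as counting error only, so uncertain read assignment lowers the number. Of implied numbers up to 200, 91.4% in MB and 91.1% in MT lay within 0.02 of a whole number. In si-NC and si-hnRNPL 41.8% and 39.9% did, so the polyA numbers are approximate. Tables were joined on gene symbol (Python 3.11.15, pandas 2.3.3), and the scripts were tested on simulated data. The RNAs and gene lists were chosen with earlier results of these data known. Named were the RNAs, at most 4 genes of a list with the largest change among those at or above an FPKM of 1 in each library, the 3 nearest profiles of each RNA, markers and Hnrnpl; Rprl3 and the neighbouring genes were added after their values were seen. Alternatives were the pseudocount (0.1, 0.01), a log2 change of 1, a filter, centring and rescaling, and, added after seeing the data, implied fragments as a share of the library and the rescaling of gene lists. Sequences were read from the mm9 genome (NCBIM37) on the strand given by GENCODE vM1, and the primers from the study's primer list. Rn7sk was not analysed here.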

Additional observations from a re-analysis of the deposited data

How the results depend on the processing

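With 1 library per condition no variation between cultures was measured, the deposited intervals cover counting and assignment error only, and 5.00 to 33.4 fragments limit Rmrp and Rpph1 in polyA RNA. No paired analysis was possible because each condition was 1 library and no result comes from a test. In MT over MB, 2 RNAs passed the threshold with either smaller pseudocount and with intervals required not to overlap, 1 after centring on the median of named entries, 1 with implied fragments as a share of the library, 0 after rescaling and 0 at a log2 change of 1. In si-hnRNPL over si-NC, 3 passed under each alternative, and in MT total over si-NC polyA 3 did, except 2 at a log2 change of 1. By implied fragments as a share of the library, the change of Rmrp in MT over MB was 0.04, against -0.20 by FPKM, and those of Rn45s, Rpph1 and Terc were -0.49, 0.23 and -0.80. In MT total over si-NC polyA the same measure gave 9.86 for Rmrp and 10.6 for Rpph1, against 8.11 and 8.90 by FPKM. Rn45s had 0.72 there, against 0.75. The total RNA sums cover more entries than the polyA sums, so these shares are not on the same base. In MT total over si-NC polyA, 5 of the gene lists had a median above that of all entries, which was -0.01. With an FPKM of 1 required in each library 8 did, where the median of all entries was -0.22, and 9 did after rescaling, where it was 0.13. Causes were not tested.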
